A study of Arabidopsis thaliana with 6 samples.

Results

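The genes described here are 58 of the 27444 protein-coding genes on the 5 chromosomes of Arabidopsis thaliana. They carry a symbol or synonym made of ERF, DREB or CRF and a number, or of RAP2 and a number, and exclude AP2, TOE1 to TOE3, SMZ, SNZ and PUCHI. The question was where FRUITFULL (FUL), a MADS-domain transcription factor that acts when plants start to flower and when fruits grow, has binding sites at these genes, and whether the sites differ between pistils and inflorescence meristems (IM). Binding was mapped by ChIP-seq with anti-GFP beads on plants that carry pFUL:FUL-GFP, a fusion of FUL and GFP under FUL's own promoter. Pistils were collected at stages 12 to 16 from ful-1 mutants. The meristems came from plants aged 4 to 5 weeks with the ap1-1 and cal-1 mutations, which make meristems where flowers would form, and with a 35S:AP1-GR transgene that was left uninduced. Both lines had pFUL:FUL-GFP in a Ler/Col F2 background, and neither was treated. For each tissue there were 2 ChIP samples, labelled as biological replicates, and 1 input, which makes 6 samples. Tissue and mutant background differed together and cannot be told apart.

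ERF, DREB and CRF proteins, which bind DNA through a single AP2 domain, belong to the AP2/ERF family of plant transcription factors. DREB proteins, among them the cold-induced CBF proteins, recognise the dehydration-responsive element of cold and drought genes. ERF proteins recognise the GCC box of ethylene and jasmonate response genes, and some of them are repressors. Cytokinin response factors (CRF) act downstream of cytokinin perception, and group VII ERF proteins switch on the genes of low-oxygen metabolism.

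The measurements were a peak list for each tissue, made from the pooled replicates, with 3494 peaks for pistil and 3650 for IM. The value of a peak is its fold enrichment at the summit, as the authors deposited it. No spread between replicates can be had from such lists, the depth behind a value is unknown, and no test over samples was possible, so every comparison below is a description. Folds of the 2 lists were computed separately. They are therefore set side by side, each with its place in its own list, and the median fold was 4.10 in the pistil list and 3.77 in the IM list. The lists also end at different limits, a −log10 p of 34.4 in the pistil list and 22.4 in the IM list. A gene was counted as having a site when a summit fell in the gene or at most 3 kb outside it. Such a site does not tell whether FUL controls the gene.

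FUL sites were listed at 34 of the 58 members in pistil (58.6%) and at 34 in IM (58.6%). Among all protein-coding genes the same window held a summit for 21.3% in the pistil list and 23.7% in the IM list. The 2 sets of members were largely the same: 30 members had a summit in both lists (all genes 15.3%), 4 in the pistil list only (all genes 6.01%) and 4 in the IM list only (all genes 8.36%). In all, 38 members had a summit in at least 1 list (all genes 29.7%), and 20 had none. Within 1 kb of the gene the counts were 20 in pistil (all genes 11.9%), 24 in IM (13.9%), 16 in both (7.97%) and 8 in IM only (5.89%). With IM peaks held to the lower limit of the pistil list, 10 members had a summit in pistil only (all genes 9.33%) and 1 in IM only (4.13%).

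A summit above the median fold of the list was found at 25 members in pistil (all genes 11.6%) and at 21 in IM (all genes 12.9%). It was found in both lists at 16 members (all genes 6.97%), in pistil only at 9 (4.67%) and in IM only at 5 (5.98%). A summit above 90% of the folds of the list was found at 4 members in pistil (all genes 2.4%), which were CBF1, CBF2, DREB1A and RAP2.4. In IM it was found at 8 (all genes 2.83%), the same 4 and ERF38, ERF7, CRF1 and CRF4. Against genes with a summit rather than all genes, the members in pistil were close to the rest at this level: 11.8% of the 34 members with a summit had one above 90% of the folds, and 11.3% of all genes with a summit. In IM the shares were 23.5% of 34 members and 12.0% of all genes with a summit. CBF2 and DREB1A had the same highest peak in each list, so these members are not all separate sites. Counted by distinct peaks, 7 of 45 IM peaks at members stood above 90% of the folds (15.6%, all IM peaks 10%). In pistil it was 4 of 45 (8.89%, all pistil peaks 9.99%). In whole tissue, fewer cells with FUL at a site and less FUL per cell cannot be told apart. More than 1 summit was found at 11 members in pistil (all genes 3.34%) and at 12 in IM (all genes 3.55%). Of those with a summit, this was 32.4% of members and 15.7% of all genes in pistil. In IM it was 35.3% and 15.0%. The highest fold of such a gene is taken from more than 1 value.

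**Figure D1:**
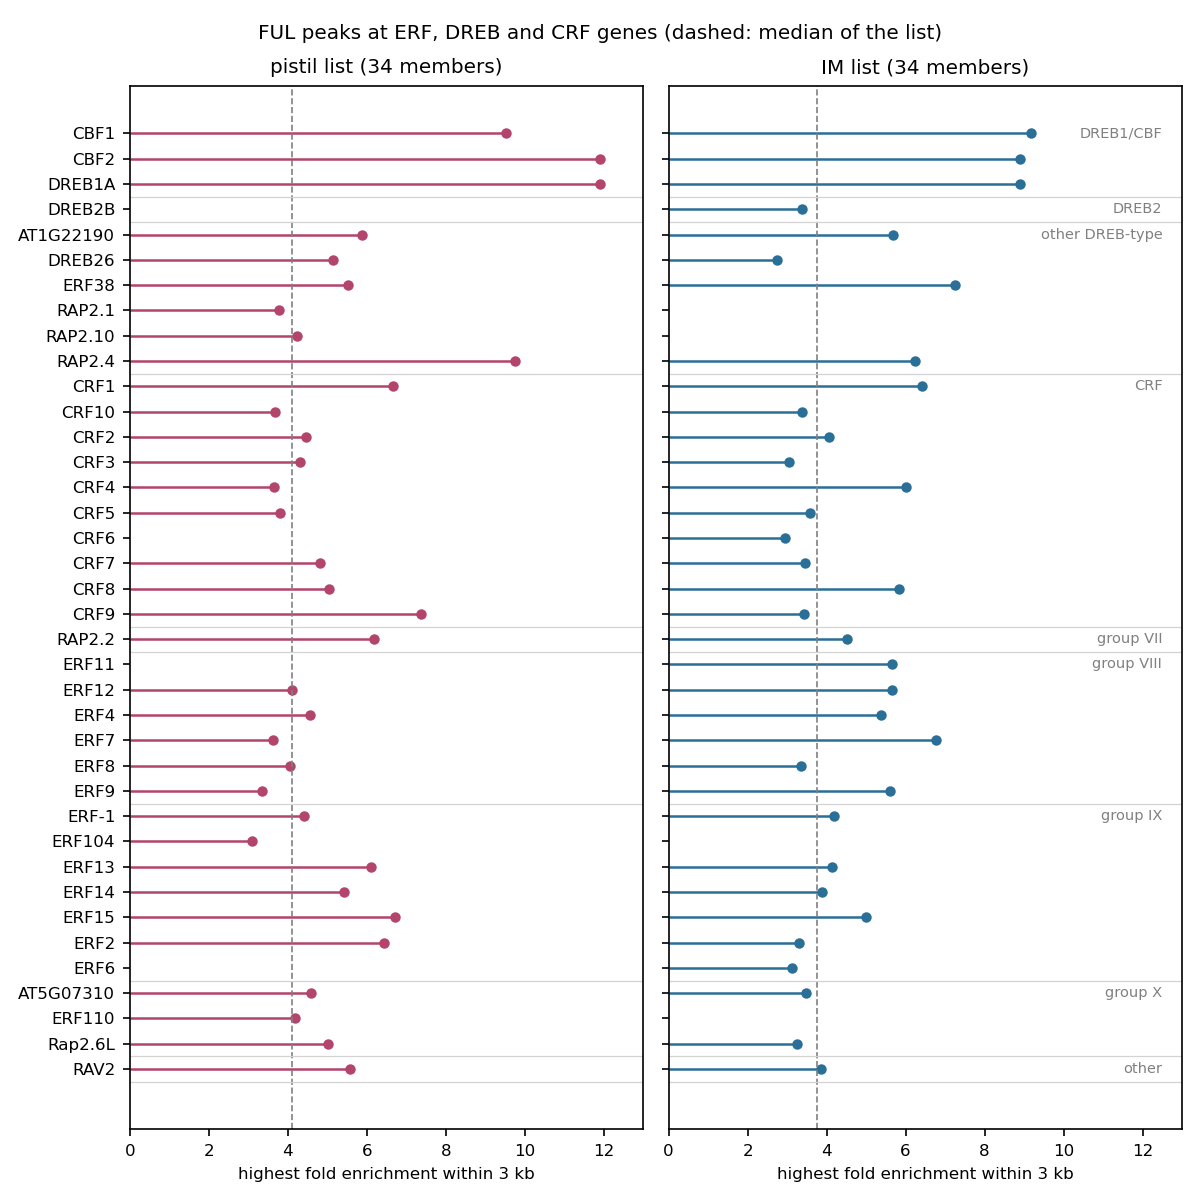
Highest fold enrichment (horizontal axis) of a FUL summit within 3 kb of each member that had one, in the pistil list (left, 34 members) and the IM list (right, 34 members), with the median of each list as a dashed line. CBF1, CBF2 and DREB1A have the highest folds in both lists, except that RAP2.4 lies above CBF1 in pistil; a row without a point had no summit in that list.

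Members stand in wider gaps between genes than most genes do, and this moved with the counts. The median length of both flanks together, measured to the neighbouring protein-coding genes, was 4500 bp for members and 1855.5 bp for all genes. All genes were divided by flank length into 4 classes of equal size. The class with the longest flanks held 32 of the 58 members, and 23 of them had a summit in pistil (71.9%, all genes of the class 26.7%) and 24 in IM (75.0%, all genes 26.9%). In the class below it, 8 of 12 members had one in pistil (66.7%, all genes 24.9%) and 7 of 12 in IM (58.3%, all genes 26.7%). In the next it was 3 of 12 in each list (25.0%, all genes 19.3% in pistil and 22.0% in IM). The 2 members in the class with the shortest flanks had none. Members without a summit had median flanks of 2054 bp, and those with one 5217.5 bp. The part of flank length in the counts was not tested.

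**Figure D2:**
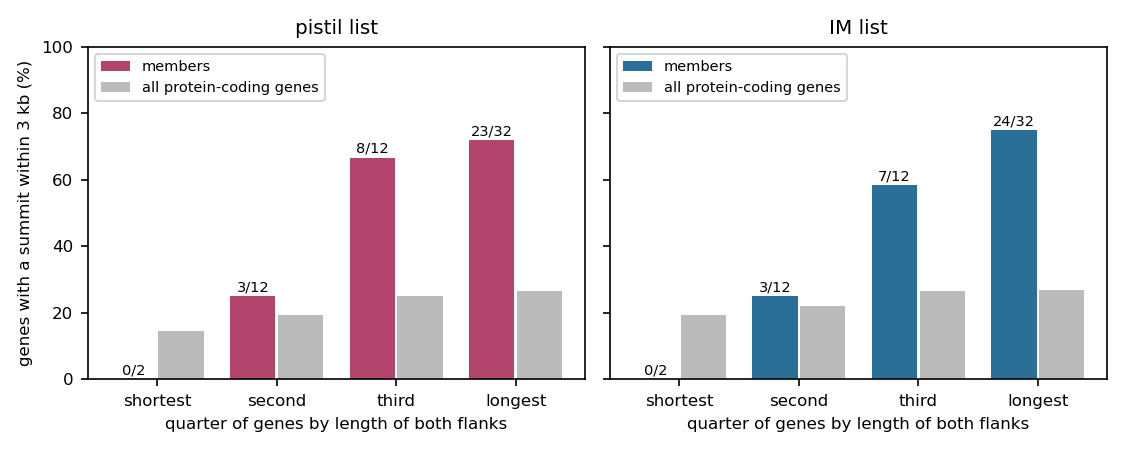
Share of genes (vertical axis, percent) with a summit inside or within 3 kb in the pistil list (left) and the IM list (right), for members and for all protein-coding genes, for 4 classes of equal size from the shortest to the longest flanks. In the 2 classes with the longest flanks 58.3% to 75.0% of the members had a summit, and 24.9% to 26.9% of all genes.

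The highest folds lay in the cluster of CBF2, DREB1A (also named CBF3) and CBF1 on chromosome 4, which encode activators of the cold response and stand side by side. Inside CBF2 (AT4G25470) a pistil peak (chromosome 4, 13014029 to 13016717, TAIR10) had a fold of 11.9, rank 45 of its list and above 98.7% of its peaks. The IM peak at the same place (13013721 to 13019716) had a fold of 8.89, rank 12 and above 99.7% of its list, and the 2 summits were 3 bp apart. Both summits were also within 3 kb of DREB1A (AT4G25480), 2652 bp away in pistil and 2649 bp in IM.

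At the other end of the cluster, the highest pistil peak of CBF1 (AT4G25490; 13022248 to 13024663) had a fold of 9.54 and its summit 738 bp outside the gene. The IM peak there (13020794 to 13024804) had a fold of 9.18, rank 6 of 3650, with its summit 775 bp from CBF1. In IM that summit was nearer to the next gene, RS40, a splicing factor gene, than to CBF1. The end sites of the cluster thus had high folds in both tissues.

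Between these ends the lists differed in how the cluster was divided. The pistil list had 3 further peaks there. One had its summit 58 bp from DREB1A on the side of CBF2 (13017114 to 13018664, fold 6.49), one 17 bp from DREB1A on the side of CBF1 (13018919 to 13019758, fold 3.18) and one 312 bp from CBF1 (13020667 to 13022197, fold 8.01). All 3 overlapped one of the 2 IM peaks, which were 5996 and 4011 bp wide against 840 to 2689 bp for the 5 pistil peaks. An IM peak has 1 listed summit, and both IM peaks carry the letter that marks 1 summit of several in a region. Further summits were therefore called in these IM regions, but the list does not give their positions or folds. CBF4 (AT5G51990), a drought-induced relative on chromosome 5, had no summit within 3 kb. Its closest were 28512 bp away in pistil and 23983 bp in IM.

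**Figure D3:**
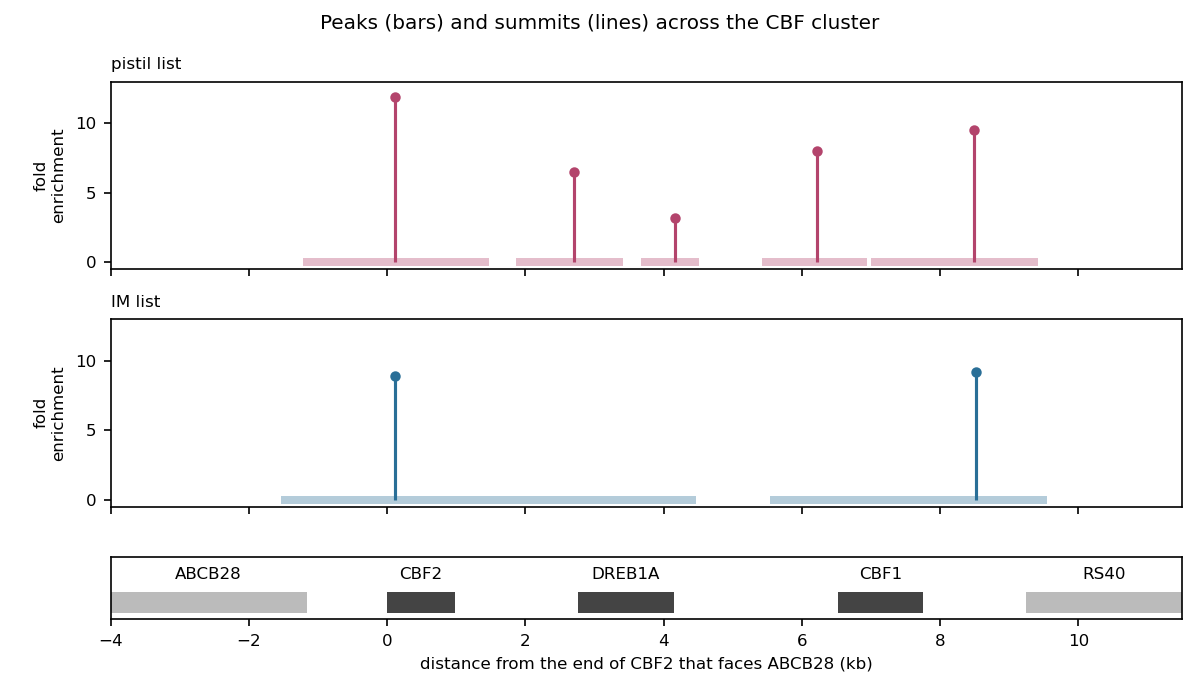
FUL peaks across the CBF cluster, with fold enrichment on the vertical axis and distance in kb from the end of CBF2 that faces ABCB28 on the horizontal axis; bars are the extent of a peak, lines its summit, and the boxes below are genes (CBF genes dark). The pistil list has 5 peaks with folds of 3.18 to 11.9 and the IM list 2 wide ones with folds of 8.89 and 9.18, and the end summits of the 2 lists coincide.

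The other DREB-type genes were less uniform. RAP2.4 (AT1G78080), also known as WIND1, a gene that promotes callus formation at wounds, had a pistil peak of fold 9.76 (chromosome 1, 29365549 to 29367867), above 95.5% of that list. The IM peak at the same place had a fold of 6.23 and stood above 92.0% of its list, with the summit 977 bp (pistil) and 990 bp (IM) from the gene. A weaker site on the other side of the gene, 1217 and 1202 bp away, had folds of 3.74 in pistil and 3.58 in IM. RAP2.4 was thus flanked by a FUL site on each side in both tissues, and it was the nearest gene to all 4 summits.

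AT1G22190, a second gene with the synonym RAP2.4, had folds of 5.88 in pistil and 5.69 in IM at summits 2882 and 2906 bp away, close to the limit of the window and nearer to AT1G22180. ERF38 (AT2G35700) had a pistil fold of 5.52 and an IM fold of 7.25, the IM value above 97.2% of the list (chromosome 2, 15007267 to 15010164). Those summits lay 2724 and 2710 bp away and nearer to PGSIP7, a gene for a glycosyltransferase-like protein. A second pair of summits, 425 and 345 bp from ERF38, had folds of 4.45 and 4.33.

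DREB26 (AT1G21910) had sites in both tissues that did not coincide: the pistil summit was 2460 bp away with a fold of 5.13, and the IM summit 345 bp away with a fold of 2.75. RAP2.1, a repressor of DREB target genes, had a pistil fold of 3.78, and RAP2.10 one of 4.24, and neither had a summit in the IM list. The RAP2.1 summit was nearer to AT1G46840. ERF53 and RAP2.9 had none in either list. DREB2-type genes act in drought and heat responses. Of the 4 that are members by name, DREB2B (AT3G11020) had IM summits inside the gene (fold 2.99) and 2591 bp away (fold 3.37) and none in pistil. DREB2A, DREB2C and DREB19 had none. The summits closest to DREB2A were 4297 bp away in pistil and 4401 bp in IM.

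Among the 12 CRF genes, 9 had a site in pistil (all genes 21.3%) and 10 in IM (all genes 23.7%). The 9 were among the 10 (all genes in both lists 15.3%). CRF1 (AT4G11140) had sites on both sides of the gene in both tissues. The stronger one lay 58 bp (pistil) and 107 bp (IM) from it, with folds of 6.65 and 6.43 (chromosome 4; pistil peak 6794091 to 6795211, IM peak 6793885 to 6795199), above 83.2% and 93.5% of the lists. The other, 589 and 557 bp away, had folds of 5.62 and 4.42. CRF10 likewise had summits on either side, with highest folds of 3.68 and 3.39, both under the median of the list. Its pistil summits were 388 and 374 bp away (folds 3.68 and 3.42). Its IM summits lay 285 bp away on one side (fold 3.39) and 487 and 1480 bp away on the other (fold 2.95 at the nearer one and lower at the farther one).

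CRF4 and CRF9 stood at different places in the 2 lists. At CRF4 (AT4G27950) the summit lay inside the gene in both, with a fold of 3.64 in pistil, above 34.4% of the list, and of 6.01 in IM, above 90.5% (chromosome 4; pistil peak 13910608 to 13912017, IM peak 13910513 to 13912219). CRF4 had a second pistil summit 1032 bp away with a low fold of 2.86, above 1.95% of the list, and no IM peak overlapped it. The opposite held at CRF9 (AT1G49120), with a pistil fold of 7.37 above 87.3% of the list and an IM fold of 3.43 above 35.6%. The CRF9 summits were 2016 and 1919 bp from it and nearer to BBX17, a B-box gene, with 5 genes in the window. These are single values of pooled lists.

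CRF8 (AT1G71130) had folds of 5.03 in pistil and 5.83 in IM at summits 271 and 357 bp away. CRF2 (AT4G23750), also named TMO3 as a target of the auxin response factor MONOPTEROS, had folds of 4.45 and 4.06 in pistil and IM at summits 2029 and 1966 bp away, nearer to AT4G23760. It had a second IM summit 570 bp away with a fold of 3.20. CRF7 had folds of 4.81 and 3.46 at summits 1837 and 1858 bp away, nearer to HIPP22. CRF5 had a pistil fold of 3.80 at a summit 787 bp away (above 39.9% of the list) and an IM fold of 3.18 at the overlapping peak, 901 bp away (above 22.7%). A separate IM peak, 92 bp away and nearer to AT2G46308, had a fold of 3.59. CRF3 had a fold of 4.31 in pistil, 2232 bp away and above 54.5% of the list, and of 3.05 in IM, 1316 bp away and above 15.3%, at peaks that did not overlap. CRF6 had an IM peak alone, 425 bp away, of fold 2.95 (above 8.74% of the list) and −log10 p 22.8, a value under the lower limit of the pistil list. CRF11 and CRF12 had no summit in the window.

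The ERF repressors of group VIII have proteins that carry a repression motif of the EAR type. They had a site at 5 of 8 genes in pistil (all genes 21.3%) and 6 of 8 in IM (all genes 23.7%). Within the pistil list their highest folds ran from 3.35 to 4.56, and within the IM list from 3.34 to 6.77. ERF7 (AT3G20310), a repressor in abscisic acid responses, had its summit inside the gene in both lists, 74 bp apart. Its fold of 3.61 in pistil was above 33.3% of the list, and its fold of 6.77 in IM was above 95.1% (chromosome 3; pistil peak 7084560 to 7085248, IM peak 7084521 to 7085698). ERF9, a repressor in defence, had 3.35 in pistil and 5.61 in IM at summits 91 and 69 bp from the gene, above 22.6% and 87.0% of the lists.

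ERF12 (AT1G28360) had a pistil fold of 4.10 at a summit 1475 bp away, while its 2 IM summits, 1039 and 1024 bp away, had folds of 5.47 and 5.65. The pistil summit and the IM summit of fold 5.47 were nearer to AT1G28350. The IM summit 1024 bp from ERF12 was also 1645 bp from its neighbour ERF11 (AT1G28370), which had no pistil summit. The −log10 p of that IM summit, 92.4, was well above the lower limit of the pistil list. ERF4 had an IM summit inside the gene with a fold of 5.38, and a pistil summit of 4.56 within the same broad peak but 2717 bp from the gene and nearer to AT3G15220. Both ERF4 peaks carry the letter that marks 1 summit of several in a region, so their other summits are not shown. ERF8 had a pistil fold of 4.06, at a summit nearer to another gene, and an IM fold of 3.34 at sites that did not overlap. ERF3 and ERF10 had no summit. The 5 members with a summit above the median of the IM list and none above that of the pistil list were ERF7, ERF9, ERF11 and ERF12 of this group and CRF4. ERF12 was among them by the narrowest margin, since its pistil fold ranked 1748 of 3494, just under the median.

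**Figure D4:**
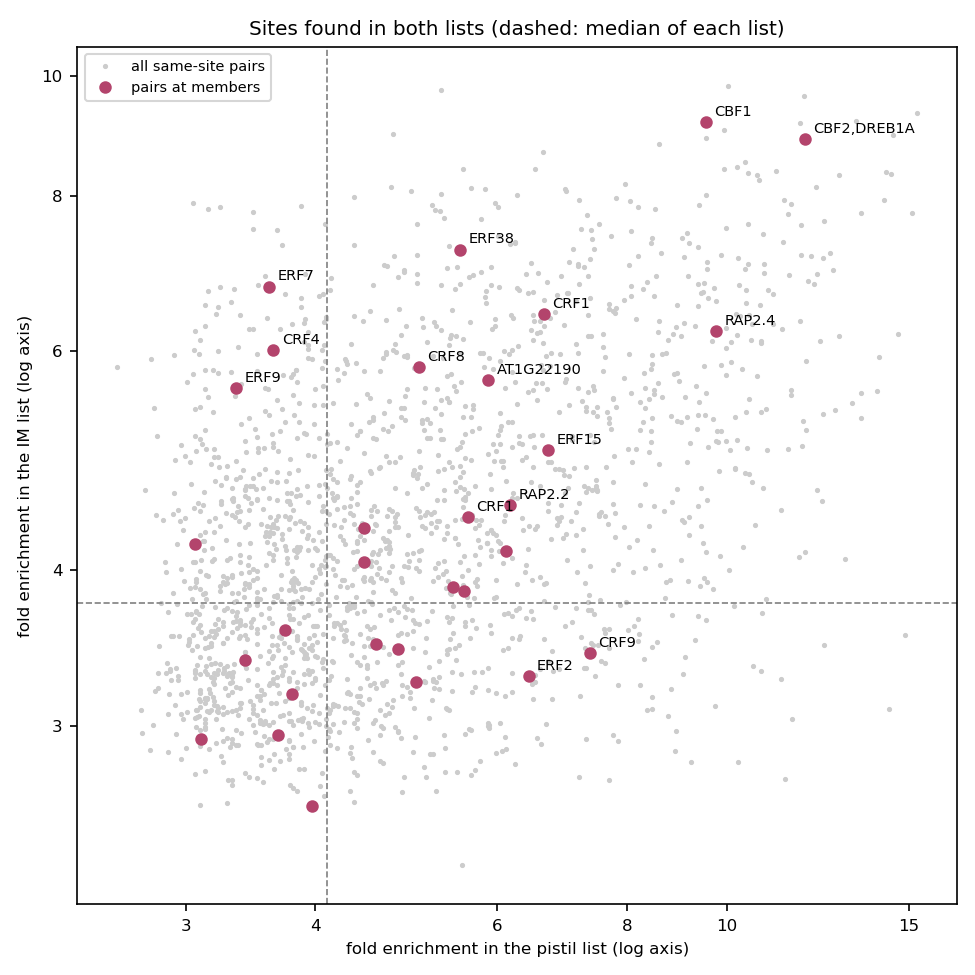
Fold enrichment in the pistil list (horizontal, log axis) and in the IM list (vertical, log axis) at 30 sites of members and at all 1959 sites where overlapping peaks of the 2 lists had summits within 250 bp; dashed lines are the medians of the lists. ERF7, ERF9 and CRF4 lie left of the pistil median and well above the IM median, ERF2 and CRF9 lie below the IM median at pistil folds of 6.43 and 7.37, and the CBF sites lie in the upper right corner.

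Group IX holds activators of ethylene, jasmonate and defence genes. Of the 11 group IX genes that are members by name, 6 had a site in pistil (all genes 21.3%) and 6 in IM (all genes 23.7%). Both lists held a site for 5 of them (all genes 15.3%). The highest pistil folds were 6.72 at ERF15, 6.43 at ERF2 and 6.11 at ERF13, and the same genes had IM folds of 5.00, 3.29 and 4.15. The ERF15 summits were 219 and 205 bp from the gene, and the ERF13 summits 2022 and 1974 bp, nearer to AT2G44830. ERF2 (AT5G47220) was the reverse of ERF7: its pistil summit inside the gene stood above 81.7% of the list and its IM summit, 112 bp outside, above 28.3%.

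ERF14 had folds of 5.43 and 3.88, and ERF-1 (ERF1A, AT4G17500) 4.42 and 4.20 at different summits. The pistil peak of fold 4.42 overlapped no IM peak. The IM peak of fold 4.20, above 63.4% of its list, had a pistil peak with its summit 27 bp away. That pistil peak had a fold of 3.06, above 6.90% of its list. ERF104, which acts in the response to bacterial flagellin, had a pistil fold of 3.09 only, at a summit nearer to AT5G61590. ERF6 had an IM fold of 3.13 only (−log10 p 26.3, under the limit of the pistil list). ERF1 (AT3G23240), the direct target of EIN3 in ethylene signalling, had no summit within 3 kb; the closest were 12753 bp away in pistil and 12726 bp in IM. ERF5, TDR1 (ERF98) and AT5G51190 (ERF105) had none either.

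The 5 group VII genes encode proteins that are degraded in the presence of oxygen. Of these genes RAP2.2 (AT3G14230) alone had a site (all genes 21.3% in pistil and 23.7% in IM). Its pistil peak had a fold of 6.17 (chromosome 3, 4739815 to 4741189) and its IM peak 4.52 (4739705 to 4741561), with summits 2 bp apart, 1201 and 1203 bp from RAP2.2 and nearer to AT3G14240. EBP (RAP2.3), RAP2.12, ERF73 (HRE1) and ERF71 (HRE2) had none. The summits closest to ERF71 were 4004 bp away in pistil (fold 4.92) and 3987 bp in IM (fold 4.03). Just outside the limit of the window was ERF6 in pistil, with its closest summit 3039 bp away (fold 3.06). Just inside the limit was AT1G22190, at 2882 bp in pistil and 2906 bp in IM.

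In group X, Rap2.6L, a gene of shoot regeneration and wound healing, had folds of 5.01 and 3.25. AT5G07310, which bears the synonym ERF115, had 4.58 and 3.49, and ERF110 a pistil fold of 4.18 alone, at a summit nearer to AT5G50090. RAP2.6 had no summit. Outside the groups, RAP2.11, a gene of the low-potassium response, had none either. RAV2 (AT1G68840), matched through its synonym RAP2.8, is TEMPRANILLO 2, a repressor of the flowering gene FT with a second DNA-binding domain. It had 3 summits in pistil and 2 in IM, with highest folds of 5.56 and 3.85 at summits 1072 and 1110 bp from the gene.

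Most member sites were at the same place in both tissues. The 49 pairs of a member and a summit in pistil came from 45 distinct peaks, and the 47 pairs in IM also from 45, since neighbouring members can share one. Of the pistil peaks at members 35 overlapped an IM peak (77.8%, all peaks 63.4%), and of the IM peaks 33 overlapped a pistil peak (73.3%, all peaks 59.5%). By summits within 250 bp of one in the other list, it was 30 pistil peaks at members (66.7%, all peaks 56.1%). In IM it was also 30 (66.7%, all peaks 53.7%). Of the 30 members with a site in both lists, 27 had peaks that overlapped by at least 1 bp. This was not counted for all genes. At ERF4 and ERF12 the summits of the overlapping peaks were 2796 and 436 bp apart. Each of those peaks carries the letter that marks 1 summit of several in a region, so other summits there are not shown. DREB26, CRF3 and ERF8 had their peaks at different places. Among overlapping peaks the median distance between the 2 summits was 49 bp for the pistil peaks at members, against 43 bp for all pistil peaks, and 48 bp for the IM peaks, against 42 bp for all IM peaks. Of the members with a site in IM only, CRF6, DREB2B and ERF6 had no summit at or above the lower limit of the pistil list, while ERF11 did.

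Sites lay inside and beside the members in shares near those of genes in general. Members were shorter, with a median length of 1308 bp against 2078 bp for all genes, so like shares do not by themselves show like placement. In pistil 5 of 49 member and summit pairs had the summit inside the gene (10.2%, all genes 13.4%), 19 within 1 kb (38.8%, all genes 37.6%) and 25 from 1 to 3 kb away (51.0%, all genes 49.0%). In IM the counts were 8 of 47 inside (17.0%, all genes 14.4%), 19 within 1 kb (40.4%, all genes 39.5%) and 20 farther out (42.6%, all genes 46.1%). The member was the gene nearest to the summit in 61.2% of its pairs in pistil (all genes 48.3%) and 70.2% in IM (all genes 46.8%). Members nearest to at least 1 summit numbered 22 in pistil (all genes 10.8%) and 27 in IM (all genes 11.8%), with 19 in both (7.13%) and 8 in IM only (4.64%). Strand was not used here, so sites before the start and after the end of a gene are not told apart.

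Genes that act around these factors were looked at in 5 short lists, beside the share of all genes with a site, 21.3% in pistil and 23.7% in IM. Of 11 ethylene synthesis genes, 6 had a site in pistil (54.5%) and 5 in IM (45.5%). The highest pistil folds were at the ACC synthase genes ACS5 (11.4, at a summit 2776 bp away and nearer to another gene) and ACS2 (6.95), and the highest IM fold at the ACC oxidase gene ACO1 (5.97). Of 13 genes of ethylene perception and signalling, 5 had a site in pistil (38.5%) and 4 in IM (30.8%). The highest pistil folds were at EIL1, a relative of EIN3 (6.78), and at the receptor gene ERS2 (6.49), and the highest IM folds at ERS2 (6.70) and EIN2 (4.13). EIL1 had an IM fold of 3.15, above 21.2% of the list. Of 11 genes upstream and downstream of the CBF factors, 6 had a site in pistil (54.5%) and 5 in IM (45.5%). These are not all separate sites. The neighbours COR15A and COR15B had the same highest peak in each list, and COR47 and ERD10 the same one in pistil. RD29A had folds of 4.26 in pistil and 4.50 in IM, and COR47 of 4.30 and 4.02. Of the 4 genes of that list that act upstream of the CBF genes, CAMTA3 had a pistil summit 1656 bp away with a fold of 3.81 and none in IM. ICE1, SCRM2 and HOS1 had none in either list.

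Of 9 low-oxygen genes, the same 4 had a site in both lists (44.4%): PCO1, ATE1, LBD41 and HRA1. HRA1 (AT3G10040) encodes a factor that restrains RAP2.12, and its peak inside the gene had the highest fold of the whole IM list, 9.81 (chromosome 3, 3097638 to 3099072). In pistil the HRA1 peak had a fold of 10.02, above 96.1% of the list (3097796 to 3098811). ATE1, with the next folds of that list, had 3.91 and 3.87. Of 11 cytokinin receptors, phosphotransfer proteins and response regulators, 2 had a site in each list (18.2%). ARR12, a type-B response regulator gene, had folds of 5.10 and 5.61, while the receptor gene AHK4 had 3.45 in pistil only and AHK3 3.04 in IM only.

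For comparison, the 6 AP2-like genes, which are the relatives left out of the member list, had sites at 5 genes in each tissue. Numbered WRKY genes had them at 22 of 72 in pistil (30.6%) and 25 of 72 in IM (34.7%), and numbered NAC genes at 29 and 34 of 100. The 58 members had 58.6% in each list, and no test between the families was made.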

How the data were processed

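FUL-GFP ChIP-seq was done on pistils and inflorescence meristems, with 2 replicates and 1 input each. Per the submitters' processing notes, MACS2 2.1.0, Bowtie 1.1.2, Picard 2.60 and deepTools were used and the build is TAIR10; which tool did what is not given in the sources used here. The authors deposited a narrowPeak list for each tissue. The fold enrichment (a ratio), the −log10 p and the score, which is the −log10 p times 10 without its decimals, are the authors' deposited values at each summit. The peak names include "pooled", from which calling on the joined replicates was read. Numbers run to 14602 (pistil) and 13754 (IM) with gaps, so each list is a selection, and its rule is not given in the sources used here. Sites missing from a list may still be bound. Names of 1128 pistil and 992 IM peaks end in a letter, which marks 1 of several summits of a region, and each region is listed once. Depth per sample is unknown.

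Genes were the 27444 protein-coding ones of a RefSeq table of TAIR10.1 (chromosomes 1 to 5). Because the peaks are on TAIR10, no coordinate of that table is printed. Its register with the peaks was checked: 26.0% of pistil and 29.5% of IM summits lay inside genes in place, and 56.3% to 63.1% and 60.2% to 65.0% when summits were shifted by 2 to 10 kb. Members matched by symbol (49) or by synonym only (9). Subgroups hold members only, so relatives without a matching name are not counted. AT4G17500 has a hyphen in its symbol and the synonym ERF1A. The assignment was tested on simulated data: 200 of 200 summits placed at known distances were assigned as made.

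Members, subgroups and pathway lists were chosen with earlier results of these data known, and no test was run on them. ACO4 and EFE are 1 gene and were counted once. Folds and distances of the summits are given for the 12 members with the highest place of a fold in either list and for the CRF, CBF and group VII genes with a summit, coordinates for some of them, and folds for the 2 highest of each pathway list, except 1 that is not reported here. Other members are named beside them so that all 58 are accounted for. Planned sequence motifs were not used here, since no sequence table was at hand, nor was strand, which the gene table does not give. Alternatives were a window of 1 kb, the nearest gene, 1 threshold on p, folds above the median, whole peaks, members by symbol and other definitions of overlap. Analyses used Python 3.11.15, NumPy 2.4.6, pandas 2.3.3 and Matplotlib 3.10.9.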

Additional observations from a re-analysis of the deposited data

How the results depend on the processing

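No paired analysis was possible because the peaks were called on pooled replicates, and for the same reason no replicate could be left out. The counts of 34 members in pistil, 34 in IM, 30 in both and 4 in each list alone depend on the window and on how summits are assigned. Within 1 kb the counts were 20 in pistil, 24 in IM, 16 in both, 4 in pistil only and 8 in IM only (all genes 11.9%, 13.9%, 7.97%, 3.90% and 5.89%). With the nearest gene alone they were 22 in pistil, 19 in both and 8 in IM only. With 1 threshold on −log10 p for both lists, which removes IM peaks only, 10 members were in pistil only and 1, ERF11, in IM only (all genes 9.33% and 4.13%). With folds above the median of the list, 21 members were in IM, 16 in both and 9 in pistil only. The median of the members' highest folds was 4.91 in pistil, 4.44 within 1 kb and 5.02 with the nearest gene alone. In IM it was 4.17, 3.68 within 1 kb and 3.85 with the nearest gene alone. For all protein-coding genes with a summit within 3 kb, the median highest fold was 4.32 in pistil and 3.90 in IM. Whole peaks in place of summits, members by symbol alone, other definitions of overlap, and leaving out the CBF cluster or RAV2 (both chosen after seeing the data) kept each count within 1.5 times.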
